A study of Mus musculus with 60 samples.

Results

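The 33 genes described here encode the enzymes, glucose transporters and regulators of glycolysis together with genes known to respond to low oxygen. They were listed by symbol, and a listed gene was kept when its counts summed over all 60 libraries reached at least 100. All 33 listed genes passed, out of 55487 genes counted. The lowest totals were 1139 counts for Car9 and 1187 for Adm, and the highest was 2755184 for Pkm. RNA was sequenced from E14JU mouse embryonic stem cells (mESCs), a 129/Ola line, in 20 groups of 3 libraries. Every group carried POLE4, a subunit of the leading-strand DNA polymerase that hands on parental histones at replication forks, fused to a degron (dTAG), so that the dTAG compound removes the protein. Cells received DMSO (Ctrl) or 1 µM dTAG (dPOLE4) for 24 h in serum and LIF (T0), after which retinoic acid (RA) without LIF was given and cells were collected at T12, T24 and T60, numbered in hours. A second experiment kept the cells in serum and LIF for 96 h with either treatment.

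Both experiments used a POLE4-dTAG line that was otherwise wild type (WT) and a POLE4-dTAG line in which MCM2, a subunit of the replicative helicase that hands parental histones to the lagging strand, carried the histone-binding mutation MCM2-2A. The groups are called Ctrl, dPOLE4, Ctrl MCM2-2A and dPOLE4 MCM2-2A. Each background was 1 line, the MCM2-2A line being a single clone, so a difference between the backgrounds cannot be told apart from a difference between clones. No label gives an oxygen treatment. Nothing in the labels says that replicates came from separately derived lines, and p-values measure the spread between these libraries. Depth was 10461077 to 46609151 counts for libraries collected at T0 to T60 and 7126100 to 23598266 counts at 96 h. The tables of the 2 experiments were normalized separately and levels were not tested between them. All libraries of a group differed from each other by more than sampling noise. Pole4 RNA averaged 52.2 ± 2.23 CPM (counts scaled to library size with TMM factors, SD, n = 3) in Ctrl at T0 and 52.8 ± 5.33 in dPOLE4, which checks nothing, because dTAG removes the protein and not the RNA. The summed level of 8 pluripotency genes was 3524 to 3644 CPM in Ctrl at T0 and none of the 8 was at 0.

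Glycolysis splits glucose into pyruvate, and cells with little oxygen, as well as mESCs in culture, turn much of that pyruvate into lactate. When oxygen is present, prolyl hydroxylases such as Egln1 and Egln3 mark the alpha subunits of hypoxia-inducible factor (HIF) for destruction. When oxygen is short, HIF accumulates, binds DNA with the core letters ACGTG or GCGTG, and raises transcription of glucose transporters, glycolytic enzymes, the lactate exporter Slc16a3, the mitophagy receptor Bnip3 and the hydroxylase Egln3 itself.

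In Ctrl at T0 the most abundant members per length were glycolytic enzymes, although the enzymes spanned a wide range. Pkm, the last enzyme of the pathway, averaged 462 RPKM (CPM divided by the gene's exon length in kilobases), followed by Aldoa at 336, Pgam1 at 282 and Gapdh at 235. Other isoforms were scarce, with Pfkp at 9.69, Hk1 at 6.23 and Aldoc at 1.68 RPKM. The glucose transporters Slc2a1 and Slc2a3 averaged 120 and 113 RPKM. Among the hypoxia-responsive genes that act outside glycolysis, Kdm3a, a histone demethylase, was highest at 25.7 RPKM, next to Pfkl at 25.6, and the hypoxia-induced carbonic anhydrase Car9 was lowest of all 33 at 0.14 RPKM. Together the members made up 0.852% to 0.923% of all counts in the Ctrl libraries at T0. Eno1 has the near-identical copy Eno1b, whose counts equalled 63.8% of those of Eno1 over all libraries, so that values of Eno1 are uncertain. For 6 other members with copies named after them, those copies held at most 0.388% of the member's counts. Copies annotated under other names were not searched.

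**Figure D1:**
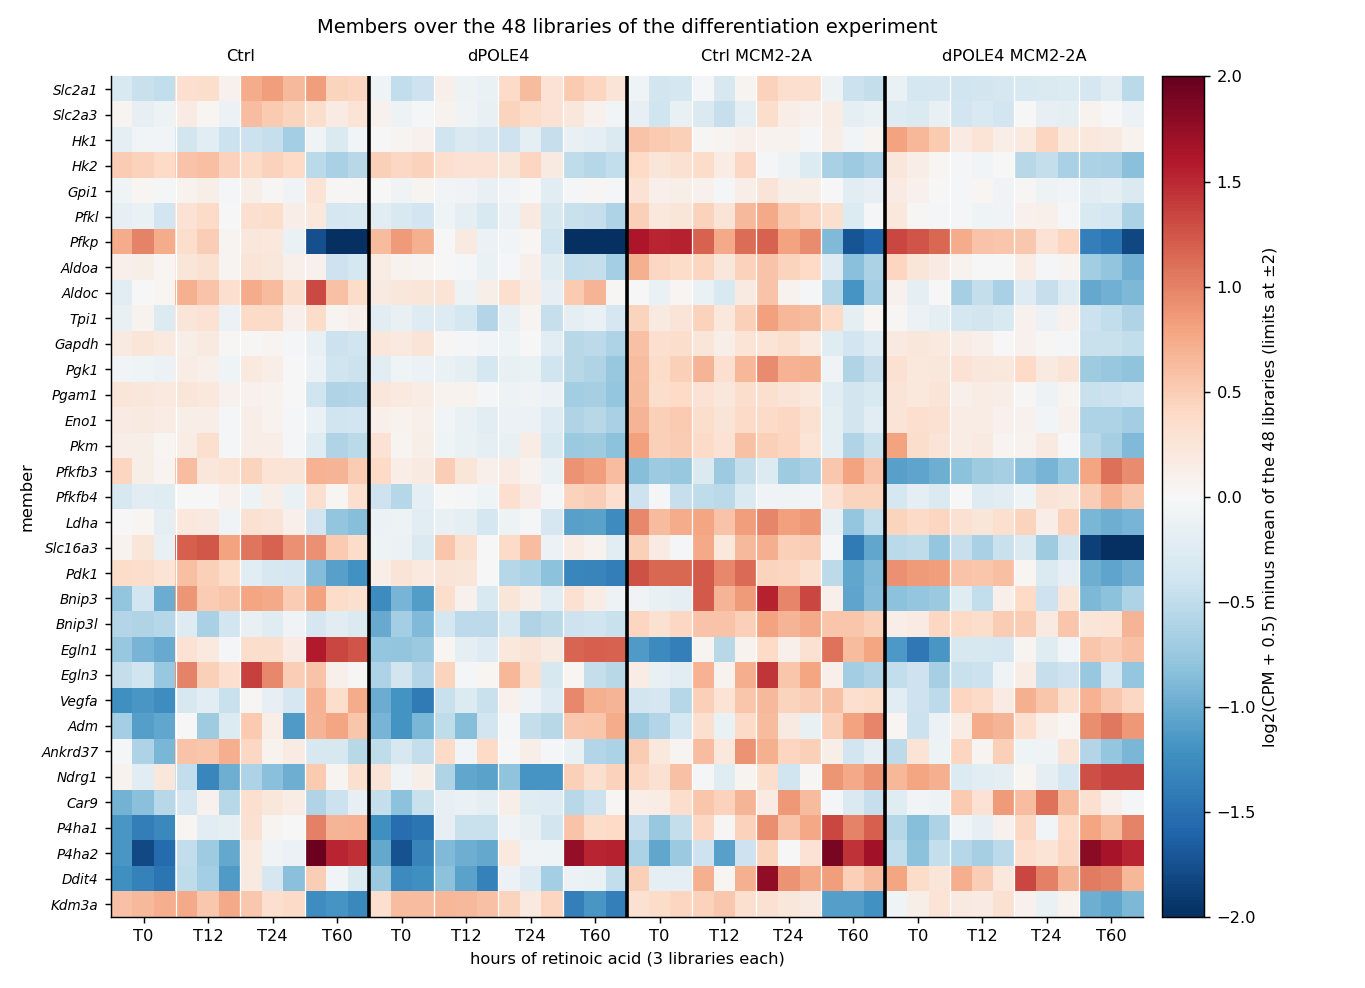
Heat map of the 33 members (rows, by role) in all 48 libraries collected at T0 to T60 (columns, by group). The colour gives log2(CPM + 0.5) minus the member's mean over the 48 libraries, from -2 (blue) to 2 (red), and shows P4ha1, P4ha2 and Egln1 highest at T60 while Pfkp, Pdk1, Hk2 and Kdm3a are lowest there.

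Do these genes differ between dTAG and DMSO? Every group carried the degron, so an effect of the compound itself cannot be told apart from loss of POLE4. The clearest differences were in the MCM2-2A background during RA treatment, where 5 members fell and none rose at T24. A gene was called differentially expressed (DE) when edgeR's quasi-likelihood test gave a Benjamini-Hochberg adjusted p under 0.01 over all features and the log2 fold change exceeded 0.58 in size. The 5 genes were Slc2a1, Tpi1, Slc16a3, Bnip3 and Egln3, where 0.504% of the 18441 features were DE and lower. Members other than these 5 with an adjusted p under 0.01 missed the fold, and there were 8 of them. Median log2 fold change over the 33 members was -0.32, against 0.00 over all features. The 3 dPOLE4 MCM2-2A libraries lay below all 3 Ctrl MCM2-2A libraries for 25 members, a separation that 13% of all features showed in that direction. They lay above them for 1 member, against 12.7% of features.

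Slc2a1, the main glucose importer of many cells (chr4:119108711-119137983, plus strand, mm10), had 770, 707 and 712 CPM in the Ctrl MCM2-2A libraries at T24. After dTAG it had 453, 458 and 463 CPM. The groups were far apart, with little spread inside either. Its log2 fold change was -0.67 (SE 0.06, adjusted p = 3.4e-05). In the same background at T0 the groups overlapped, at 527, 437 and 441 CPM in Ctrl MCM2-2A and 513, 441 and 446 CPM in dPOLE4 MCM2-2A, with a log2 fold change of 0.03 (SE 0.09, adjusted p = 0.94). The change in the POLE4 effect from T0 to T24 was -0.70 for Slc2a1 (SE 0.11), which missed the threshold in edgeR with an adjusted p of 0.072 and passed it in DESeq2 and with a replicate block. At T60 the groups overlapped again.

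Tpi1 (chr6:124810586-124814296, minus strand) encodes triosephosphate isomerase, which interconverts the triose phosphates that aldolase makes. Its libraries held 368, 330 and 324 CPM in Ctrl MCM2-2A at T24 and 220, 192 and 221 CPM in dPOLE4 MCM2-2A. No dPOLE4 MCM2-2A library came near the lowest control. Tpi1 fell by 0.69 on the log2 scale (SE 0.07, adjusted p = 8.1e-05). It had already fallen at T12, by 0.74 (SE 0.07, adjusted p = 0.00038), where the controls held 285, 240 and 289 CPM and the treated libraries 163, 162 and 168 CPM. At T60 it was the only DE member, at -0.59 (SE 0.12, adjusted p = 0.0099), with 270, 182 and 214 CPM against 155, 148 and 136 CPM.

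Slc16a3 (chr11:120948480-120960868, plus strand) is the monocarboxylate transporter MCT4, which exports lactate. At T24 the Ctrl MCM2-2A libraries held 122, 102 and 103 CPM and the dPOLE4 MCM2-2A libraries 59.7, 44.4 and 55.7 CPM. Its level in every treated library was well below that in every control. The log2 fold change was -1.02 (SE 0.10, adjusted p = 4.4e-05) at T24 and -1.09 (SE 0.12, adjusted p = 0.00098) at T12. After 96 h in serum and LIF it was again DE and lower, with 87, 80.4 and 82.4 CPM against 41, 41.6 and 48.8 CPM (-0.93, SE 0.09, adjusted p = 0.0025). Slc16a3 missed the adjusted threshold in this background at T0 (-0.79, SE 0.12, adjusted p = 0.022) and at T60 (-1.39, SE 0.29, adjusted p = 0.014), although the groups did not overlap at either time. At T60 the control libraries held 72.3, 27.1 and 35.2 CPM, so the spread was wide, and the treated ones 19.6, 17.4 and 13.8 CPM. Without Ctrl MCM2-2A replicate 1, the highest control, the T60 value was -0.86 and DE (adjusted p = 0.0074), and without replicate 2 it was -1.65 and DE.

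Bnip3 (chr7:138890836-138909519, minus strand), which tags mitochondria for removal, held 78.1, 52.7 and 67.7 CPM in Ctrl MCM2-2A at T24 and 35.2, 19.7 and 31.3 CPM in dPOLE4 MCM2-2A. Its spread was wider than that of Tpi1, yet the groups stayed apart. It fell by 1.18 on the log2 scale at T24 (SE 0.17, adjusted p = 0.00089) and by 1.15 at T12 (SE 0.16, adjusted p = 0.0033). The paralog Bnip3l had -0.32 at T24 and -0.12 at T12 and was not DE at either time. Egln3 (chr12:54178981-54203860, minus strand), the hydroxylase that HIF itself induces, was a low-abundance member, with 17.2, 9.06 and 10.9 CPM in the controls and 6.76, 4.27 and 4.44 CPM after dTAG at T24 (-1.24, SE 0.22, adjusted p = 0.0048). That call ended without Ctrl MCM2-2A replicate 1, dPOLE4 MCM2-2A replicate 2 or dPOLE4 MCM2-2A replicate 3 at T24. Its paralog Egln1 had -0.34 and was not DE.

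The HIF core letters are shown for 4 of these 5 genes, which were picked because they were DE at T24. The promoter window was 250 bases before to 50 bases after a transcript start (RefSeq, GRCm38.p6), and it was available for 30 of the 33 members. ACGTG or GCGTG was searched on both strands, with overlapping matches counted as 1. Of the 30 members, 28 (93.3%) had at least 1 match in a window, against 46.7% of the 27025 genes with a window. At least 2 matches were found for 73.3% of the members and 19.2% of all genes. The list was drawn partly from genes known to respond to low oxygen, so these shares do not test whether HIF acted here. Member windows had a median GC content of 63.3% and all windows 52.7%. Its part in the share with a match was not tested. Tpi1 and Gpi1 had no match in their windows. Hk1 and Vegfa, which were not DE at T24, had up to 4 and 2 matches in a window. How matches relate to the fold changes was not tested. The stretches below run 5′ to 3′ on the gene's strand, with matched letters in capitals (CACGT and CACGC are the same letters on the other strand).
Slc16a3, chr11:120949020-120949066, plus strand: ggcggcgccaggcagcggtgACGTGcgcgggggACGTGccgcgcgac
Bnip3, chr7:138909517-138909643, minus strand: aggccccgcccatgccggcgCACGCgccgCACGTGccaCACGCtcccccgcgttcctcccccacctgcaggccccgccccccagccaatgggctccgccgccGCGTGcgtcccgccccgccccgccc
Egln3, chr12:54204079-54204123, minus strand: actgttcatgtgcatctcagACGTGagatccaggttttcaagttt
Slc2a1, chr4:119108664-119108733, plus strand: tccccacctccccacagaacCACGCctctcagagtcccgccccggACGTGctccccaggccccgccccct

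Several glycolytic enzymes moved less far at T24 in the MCM2-2A background. The 8 members with an adjusted p under 0.01 and a smaller fold were Hk2 at -0.43, Pfkl at -0.51, Pfkp at -0.56, Aldoa at -0.41, Pgk1 at -0.50, Eno1 at -0.32, Ldha at -0.54 and Pdk1 at -0.52. Hk2 traps glucose in the cell, Pfkl and Pfkp are subunits of the committed enzyme of glycolysis, Ldha makes lactate and Pdk1 turns off pyruvate dehydrogenase. Ldha held 1181, 1059 and 1096 CPM in Ctrl MCM2-2A and 813, 656 and 822 CPM in dPOLE4 MCM2-2A, with no overlap. Eno1b, the copy of Eno1, had -0.33. Not every member was lower. Hk1 had a log2 fold change of 0.24, Pfkfb4 0.23 and Vegfa, the angiogenic growth factor, 0.01, and none of them was DE. The pluripotency genes overlapped at T24, with sums of 2324 to 2687 CPM in Ctrl MCM2-2A and 2289 to 2579 CPM in dPOLE4 MCM2-2A. Of 6 summed marker lists, 3 did not overlap at this time. The 6 RA-induced genes summed to 495 to 537 CPM in Ctrl MCM2-2A and 398 to 432 in dPOLE4 MCM2-2A, with Hoxb1 DE at -0.84. The 3 trophoblast genes summed to 41.0 to 53.0 CPM and 56.8 to 71.8 CPM, and the 5 fibroblast genes to 53.94 to 57.95 and 58.36 to 60.01 CPM. Neural and endoderm sums overlapped, although the neural gene Sox1 was DE at -0.70. The part of these markers in the result was not tested. In these bulk samples, fewer cells of a type and less RNA per cell cannot be told apart.

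At T12 in the MCM2-2A background 3 members were DE and lower, Tpi1, Slc16a3 and Bnip3, where 0.404% of features were DE and 0.188% DE and lower. The median over 33 members was -0.27 and 17 members had treated libraries below all controls, against 9.94% of features. For 2 members they lay above all controls, against 12.5% of features. The count of DE members rested on single libraries. It was 6 without Ctrl MCM2-2A replicate 2 and 1 without dPOLE4 MCM2-2A replicate 2, which ended the calls of Slc16a3 and Bnip3. The Bnip3 call also ended without Ctrl MCM2-2A replicate 1 or dPOLE4 MCM2-2A replicate 1. At T12 the RA-induced sum was lower without overlap, at 265 to 323 CPM in Ctrl MCM2-2A and 213 to 245 in dPOLE4 MCM2-2A. The trophoblast sum was higher, at 27.4 to 32.9 and 38.3 to 45.2 CPM, the other 4 marker sums overlapped, and the part of these markers was not tested. At T60 Tpi1 alone was DE and lower, where 2.25% of features were DE and 1.19% DE and lower, and the median was -0.16 (-0.01 without Ctrl MCM2-2A replicate 1). The Tpi1 call at T60 ended without Ctrl MCM2-2A replicate 1 or 3 or without any 1 of the dPOLE4 MCM2-2A libraries, and 3 members were DE without Ctrl MCM2-2A replicate 2. Eno1, at -0.38, and Ndrg1, a stress-responsive gene at 0.51, had adjusted p of 0.0058 and 0.0033 at T60 but missed the fold. Groups did not overlap for 11 members that were lower and 4 that were higher, against 15.5% and 13.5% of features, so this share was closer to the background than at T24.

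Of the 6 summed marker lists, 5 did not overlap between the POLE4 states at T60 in this background. The fibroblast genes summed to 206 to 215 CPM in Ctrl MCM2-2A and 117 to 135 in dPOLE4 MCM2-2A, with Col1a1 (-0.94), Col1a2 (-1.72) and Col3a1 (-1.32) DE. The RA-induced genes summed to 636 to 644 and 528 to 579 CPM. The 4 neural genes summed to 217 to 250 and 166 to 183 CPM, with Pax6 DE (-0.88), and the 4 endoderm genes to 256 to 281 and 199 to 226 CPM, with Foxa2 DE (-0.63). The trophoblast genes were higher, at 187 to 219 and 223 to 295 CPM. Pluripotency sums overlapped, at 708 to 892 CPM and 849 to 1101 CPM, with Pou5f1 (0.64) and Tfcp2l1 (0.63) DE and higher. None of the genes of these lists was at 0, and their part in the T60 values of Tpi1 and Slc16a3 was not tested.

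Without RA, fewer members were called in the MCM2-2A background. At T0 the median was -0.19 (-0.12 without Ctrl MCM2-2A replicate 1), no member was DE by edgeR, and 0.0715% of features were DE (0.0495% as lower). An unadjusted p under 0.05 was reached by 16 of 33 members (48.5%) and by 13.5% of features. DESeq2 called 2 members at T0. The replicate numbers paired these libraries, and with the replicate as a block Slc16a3 (-0.78) and Bnip3 (-0.62) were DE and lower. Groups did not overlap for 15 members that were lower at T0, against 10.8% of features, and for 1 that was higher, against 8.68%. At 96 h Slc16a3 alone was DE and lower, where 0.304% of features were DE and 0.109% DE and lower, and the median was -0.06. P4ha2, a collagen prolyl hydroxylase, had 19.1, 19.4 and 15.4 CPM in the controls and 30.8, 31.7 and 29 CPM after dTAG, all above the controls. Its log2 fold change was 0.77 (SE 0.12, adjusted p = 0.016), and it became DE in DESeq2 and in the replicate block that the numbers at 96 h support. The Slc16a3 call at 96 h ended without Ctrl MCM2-2A replicate 3, dPOLE4 MCM2-2A replicate 2 or dPOLE4 MCM2-2A replicate 3. For the 96 h comparison 3 members were lower without overlap and 3 higher, against 7.49% and 9.18% of features. Trophoblast genes were higher after dTAG here too, with sums of 26.5 to 30.5 and 36.6 to 40.6 CPM at T0 and 24.2 to 28.9 and 29.7 to 42.0 CPM at 96 h, when the endoderm sum was lower (22.2 to 25.2 and 18.2 to 21.5 CPM). The part of these markers was not tested.

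**Figure D2:**
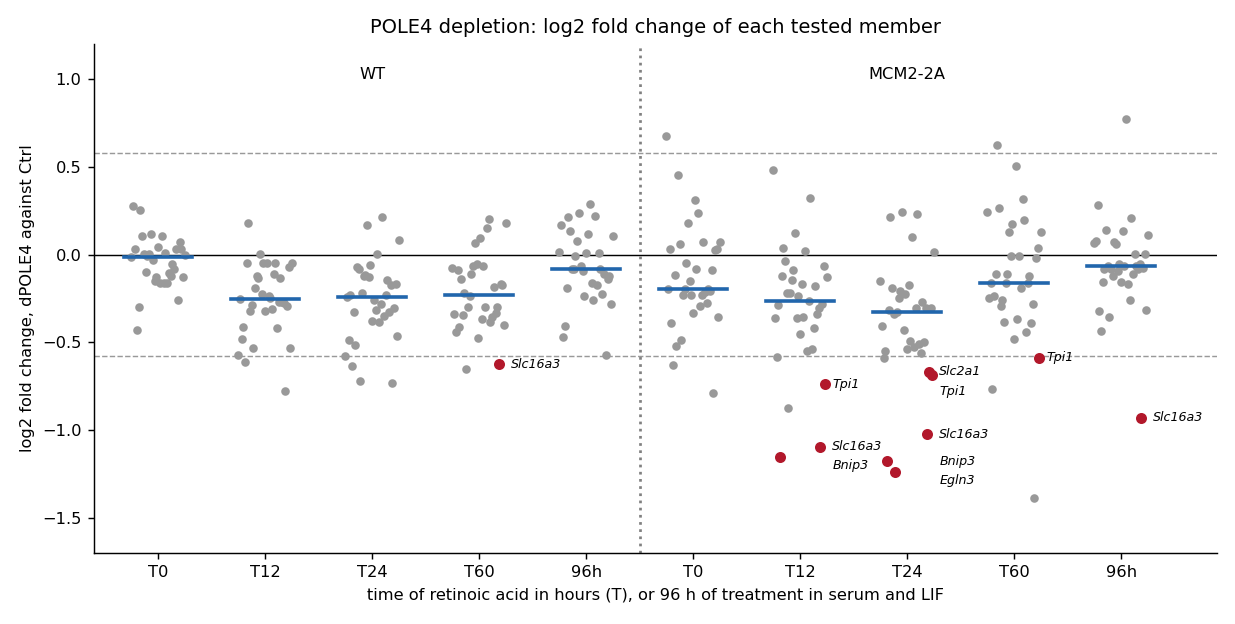
Log2 fold change of each tested member (points) for dPOLE4 against Ctrl in 10 comparisons (x axis: background and time), with the members' median as a blue line, dashed lines at 0.58 in either direction and DE members named in red. The medians at T12 and T24 are -0.25 and -0.24 in WT and -0.27 and -0.32 in MCM2-2A.

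In the WT background no member was DE at T0, T12, T24 or 96 h by edgeR, and neither was any other feature (0%). Unadjusted p under 0.05 was reached by 6, 21, 17 and 7 members at these times, of 31, 33, 33 and 31 tested, and by 11.6%, 6.42%, 7.6% and 12.3% of features. DESeq2 called 0, 0, 1 and 0 members. The paper, which used DESeq2, reported DE genes in WT after 96 h, so the share of 0% holds for edgeR as fitted here. During RA the members nevertheless lay mostly on the lower side. At T12, 31 of 33 members had a negative log2 fold change, and the median was -0.25 beside 0.00 for all features. Of all features 49.7% were negative at T12 and 50.6% at T24. Groups did not overlap for 16 members that were lower and 0 that were higher, against 8.09% and 5.24% of features. At T24 the median was -0.24, 29 of 33 were negative, and 15 members were lower and 0 higher without overlap, against 6.65% and 7% of features. At T0 the median was -0.02, 3 members were lower and 2 higher without overlap, against 5.7% and 11.9%, and at 96 h the median was -0.08 with 6 lower and 2 higher, against 10.6% and 7.61%. Adm and Car9 were too low to be tested in WT at T0 and 96 h, as was Car9 at T60.

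The replicate numbers also paired the WT libraries at T24, and with the block 3 members were DE and lower there, Slc16a3 (-0.75), Bnip3 (-0.65) and Egln3 (-0.74). Slc16a3 held 154, 166 and 138 CPM in Ctrl at T24 and 95.2, 112 and 67.6 CPM in dPOLE4. No treated library reached the lowest control. The unblocked values were -0.73 for Slc16a3 (adjusted p = 0.13), -0.64 for Bnip3 (adjusted p = 0.10), -0.72 for Egln3 (adjusted p = 0.48), -0.46 for Tpi1 (adjusted p = 0.22) and -0.30 for Slc2a1 (adjusted p = 0.29). At T12, 2 members were DE without Ctrl replicate 3. At T60 Slc16a3 was DE and lower in WT, where 0.193% of features were DE, 0.134% lower and 0.0584% higher, with 139, 105 and 94.4 CPM in Ctrl and 81, 76.8 and 62.8 CPM in dPOLE4 (-0.63, SE 0.11, adjusted p = 0.0095). The groups did not overlap. That call ended in DESeq2 and without Ctrl replicate 1 or any 1 of the dPOLE4 libraries. Tpi1 had -0.40 (SE 0.07) at the same adjusted p of 0.0095, below the fold, and Pgk1, Eno1 and Ldha had -0.33, -0.30 and -0.48. The median at T60 was -0.23 (-0.13 without Ctrl replicate 1), and 15 members were lower and 0 higher without overlap, against 8.79% and 9.05% of features. Fibroblast genes summed to 392 to 537 CPM in Ctrl and 328 to 348 CPM in dPOLE4 at T60, and neural genes to 295 to 324 and 267 to 276 CPM. At T12 the RA-induced sum was lower without overlap (314 to 374 and 280 to 296 CPM) and at T24 the trophoblast sum was higher (46.9 to 48.3 and 50.2 to 53.9 CPM). At T0 the neural sum was higher (215 to 223 and 225 to 252 CPM). The other sums overlapped at these times, and the part of the markers was not tested.

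The effect of POLE4 depletion was not shown to differ between the backgrounds for any member. The test of the difference itself called 0 members at T0, T12, T24, T60 and 96 h by edgeR and by DESeq2, where edgeR called 0.00526%, 0.0159%, 0.0351%, 0.1% and 0% of features. Unadjusted p under 0.05 was reached by 1, 1, 3, 4 and 1 of 33 members and by 5.39%, 7.4%, 8.81%, 10.1% and 3.7% of features. At T24 the difference, MCM2-2A minus WT, was -0.38 for Slc2a1 (SE 0.11, adjusted p = 0.26), -0.55 for Bnip3 (SE 0.24), -0.53 for Egln3 (SE 0.39), -0.31 for Slc16a3 (SE 0.20) and -0.24 for Tpi1 (SE 0.15). The change in the POLE4 effect from T0 to T24, a comparison added after the values were seen, called 0 members in either background by edgeR and 0% of features. Of 33 members, 29 had a lower value at T24 in each background, with medians of -0.20 in WT and -0.24 in MCM2-2A, while 48.5% and 51.4% of features did. Unadjusted p under 0.05 was reached by 9 members in WT and 14 in MCM2-2A (27.3% and 42.4%), beside 3.12% and 6.29% of features, and DESeq2 called 0 and 1. The comparisons at T0 and T24 share no libraries with each other.

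Other gene lists of glycolysis and its neighbouring pathways held 0 to 2 DE genes each at T24 in the MCM2-2A background, and the difference from the members was not tested. Of 13 tested members of a list of other glycolysis genes, mostly tissue-restricted isoforms such as Eno2 and Pfkm, 0 were DE and the median was 0.05. None of 28 genes of pyruvate entry and the tricarboxylic acid cycle and none of 7 pentose phosphate genes was DE, with medians of -0.04 and -0.01. Of 9 genes of the HIF pathway itself, such as Hif1a, Epas1 and Vhl, only Arnt2, a partner subunit of HIF, was DE and lower (-0.65). Among 30 other known HIF targets, Stc2 (-0.85), a secreted glycoprotein, and Loxl2 (-0.65), a lysyl oxidase, were DE and lower, and the median was -0.21. Their sum was lower without overlap, at 1359 to 1480 CPM in Ctrl MCM2-2A and 1146 to 1286 CPM in dPOLE4 MCM2-2A. That of the HIF pathway was lower too, at 460 to 479 and 437 to 450 CPM. The sum of the other glycolysis genes, over 17 gene IDs, was instead higher without overlap, at 381 to 411 and 413 to 435 CPM. Sums of the pyruvate and tricarboxylic acid cycle genes and of the pentose phosphate genes overlapped. The counts of DE genes in these lists compare with 1.02% of all features DE in either direction. The sum of the other HIF targets was also lower without overlap in MCM2-2A at T0 and T12. In WT it was so at T0, T12, T24 (1466 to 1518 and 1243 to 1382 CPM) and 96 h. It overlapped at T60 in both backgrounds and at 96 h in MCM2-2A. The HIF pathway sum was lower also in MCM2-2A at T0 and T60 and in WT at T60 and 96 h. That of the other glycolysis genes was higher in MCM2-2A at T12 and 96 h and in WT at T0. At T60 it was lower in both backgrounds.

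How did the members differ between the untreated backgrounds? At T0, when Adm was too low to be tested, 10 of 32 members were higher in Ctrl MCM2-2A than in Ctrl and 1 was lower, while 9.83% and 9.06% of all features were. The higher genes were Hk1, Pfkp, Ldha, Pdk1, Bnip3l, Vegfa, Car9, P4ha1, P4ha2 and Ddit4, and the lower was Pfkfb3. The replicate numbers paired these libraries, and with the block Ankrd37 was also DE and higher (0.88, adjusted p = 0.0053), against 0.84 (adjusted p = 0.024) without it. The median was 0.43 over the members and -0.02 over all features. For 23 members every Ctrl MCM2-2A library lay above every Ctrl library, against 29.6% of features, and for 3 every library lay below, against 24.6%.

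Pdk1 (chr2:71873224-71903858, plus strand), the kinase that turns off pyruvate dehydrogenase, held 72.9, 72.2 and 68.4 CPM in Ctrl at T0 and 137, 126 and 125 CPM in Ctrl MCM2-2A. The groups were tight and far apart (0.82, SE 0.05, adjusted p = 3.4e-07). Ldha (chr7:46841475-46855627, plus strand) held 604, 617 and 528 CPM in Ctrl and 1167, 932 and 996 CPM in Ctrl MCM2-2A (0.78, SE 0.08, adjusted p = 7.1e-06). Pfkp, a phosphofructokinase subunit, went from 122, 145 and 122 CPM to 224, 210 and 213 CPM (0.69, SE 0.07, adjusted p = 6.6e-06). None of these 3 genes overlapped between the groups. Hk1, the housekeeping hexokinase, held 49.5, 55 and 54.8 CPM in Ctrl and 84.6, 82.5 and 79.3 CPM in Ctrl MCM2-2A, but its 0.59 (SE 0.06) was just past the fold and ended without Ctrl replicate 1 or with other scaling.

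Among the hypoxia-responsive genes, Ddit4 (chr10:59949669-59951834, minus strand), an inhibitor of mTORC1 signalling, held 29.6, 27.1 and 25.1 CPM in Ctrl at T0 and 97.8, 61.1 and 60.6 CPM in Ctrl MCM2-2A (1.38, SE 0.15, adjusted p = 1.8e-05). Its first Ctrl MCM2-2A library was the highest, and all 3 were above Ctrl. Car9 (chr4:43506966-43513729, plus strand) was near the limit of detection, at 0.226, 0.284 and 0.451 CPM in Ctrl and 1.04, 1.06 and 1.28 CPM in Ctrl MCM2-2A (1.76, SE 0.34, adjusted p = 0.0013). Vegfa had 19.5, 20.5 and 19.4 CPM and 35.9, 36.8 and 31.3 CPM (0.76, SE 0.08). P4ha1 and P4ha2, the catalytic subunits of collagen prolyl hydroxylase, had 0.70 (SE 0.09) and 0.67 (SE 0.15), and the P4ha2 call ended without Ctrl replicate 2 or 3. Pfkfb3, which makes the activator of phosphofructokinase, was the exception, with 40.8, 32.5 and 31.1 CPM in Ctrl and 16.4, 18 and 17.5 CPM in Ctrl MCM2-2A (-1.05, SE 0.11, adjusted p = 1.1e-05).

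The line also differed from WT over whole stretches of some chromosomes, so each member was read beside the genes within 5 Mb. Bnip3l (chr14:66985239-67008877, minus strand) held 41.4, 41.1 and 42 CPM in Ctrl and 84, 77.4 and 83.6 CPM in Ctrl MCM2-2A at T0 (0.94, SE 0.05, adjusted p = 1.4e-07). Its 77 tested neighbours had a median of 0.70. Neighbours of Aldoc, Slc16a3 and P4ha2, all on chromosome 11, had medians of -0.47, -0.50 and -0.40 at T0, and those of Pfkfb3, on chromosome 2, 0.67. Of the 11 members called at T0, 8 differed from their neighbours' median by more than 0.58 in the direction of the call. Bnip3l was not among them. Pole4 (-0.68) and Mcm2 (-0.70) RNA were themselves lower in this line. At T0 the fibroblast genes summed to 51.0 to 64.8 CPM in Ctrl and 36.8 to 48.9 in Ctrl MCM2-2A, and the neural genes to 215 to 223 and 156 to 177 CPM. Sums were higher in Ctrl MCM2-2A for the pluripotency genes (3524 to 3644 and 3908 to 4490 CPM), the endoderm genes (3.63 to 8.95 and 14.6 to 20.3 CPM) and the RA-induced genes (7.02 to 8.21 and 11.5 to 13.4 CPM), while trophoblast sums overlapped. Their part in the member values was not tested.

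**Figure D3:**
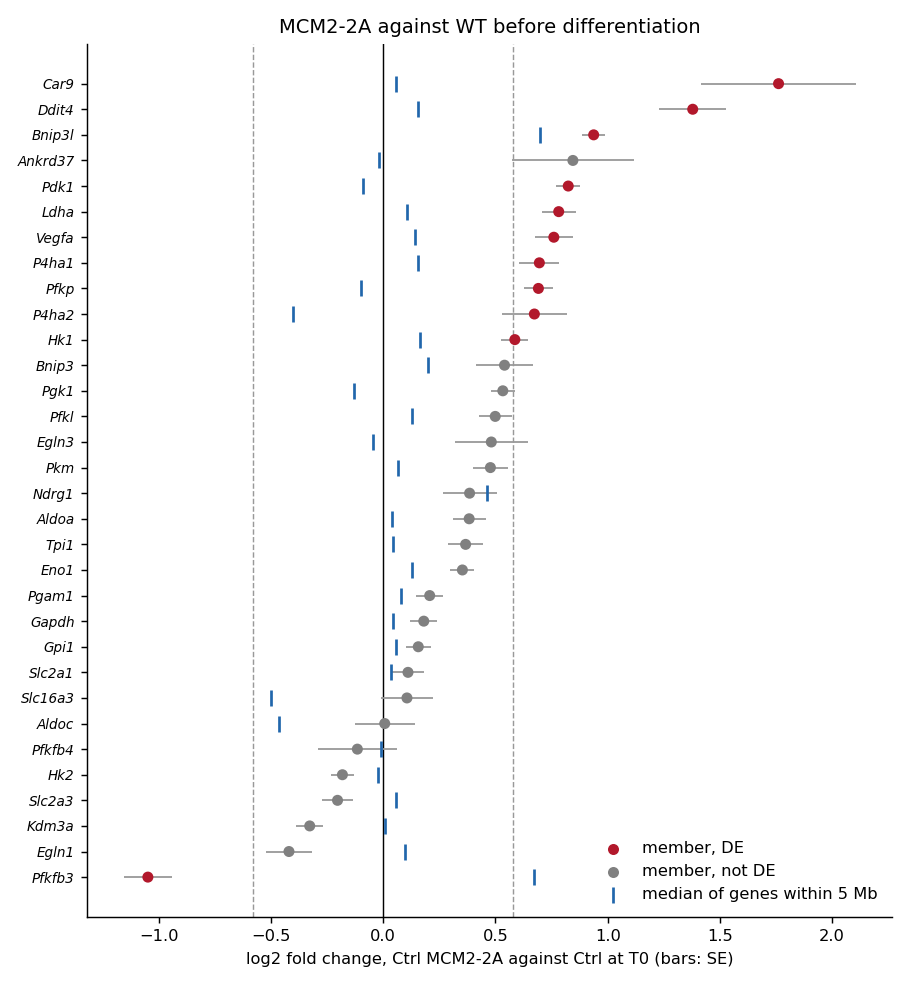
Log2 fold change of each tested member between Ctrl MCM2-2A and Ctrl at T0 (points with SE, x axis, red where DE and grey where not). The median of the tested genes within 5 Mb is a blue tick. Bnip3l at 0.94 lies near its neighbours' 0.70, while Ddit4 at 1.38 and Pfkfb3 at -1.05 lie away from theirs.

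The higher level of several of these genes was seen at later times too. The comparisons at different times use different libraries, but of the same 2 lines, so they do not repeat the comparison with another clone. Chromosome neighbours are given for T0 only. Later calls, such as those of Bnip3l, Aldoc and Slc16a3, are not set beside theirs. At T12, 8 members were higher and 2 lower in Ctrl MCM2-2A, against 6.93% and 7.62% of features, with a median of 0.26 (0.15 without Ctrl replicate 3 and 0.16 without Ctrl MCM2-2A replicate 1 or 3). Besides Pfkp (0.75), Ldha (0.66), Pdk1 (0.66), Bnip3l (0.98), Vegfa (0.80), Ddit4 (1.29), Ndrg1 (0.85) and Car9 (1.24), the lower genes were Pfkfb3 (-0.86) and Aldoc (-0.65), a brain-type aldolase. The Car9 call ended in DESeq2 and without any library except Ctrl replicate 2. Aldoc lost its call without Ctrl replicate 1 or 2 or Ctrl MCM2-2A replicate 1 or 2, Ndrg1 without Ctrl replicate 3 or Ctrl MCM2-2A replicate 1 or 3, and Ldha without Ctrl replicate 3. At T12, T24 and 96 h, 1, 3 and 3 of the 6 marker sums overlapped between the lines. The neural sum was lower in Ctrl MCM2-2A each time, at 137.7 to 171.9 and 96.8 to 108 CPM at T12, 149.6 to 161 and 70.6 to 80.3 CPM at T24 and 199.8 to 212 and 144 to 183 CPM at 96 h. The pluripotency sum was higher at T12 (2434 to 2750 and 2943 to 3113 CPM) and T24 (1830 to 2040 and 2324 to 2687 CPM). The endoderm sum was higher at T12 and 96 h, and the RA-induced sum at 96 h. Fibroblast sums were lower at T12 and T24, and the trophoblast sum at T12. The part of these markers was not tested.

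At T24, 11 were higher and 1 was lower in Ctrl MCM2-2A, against 9.71% and 7.6% of features, with a median of 0.34. Pgk1, which makes ATP in the later steps of glycolysis, was among them at 0.70, with Pfkp (0.90), Ldha (0.70), Pdk1 (0.72), Bnip3 (0.63), Bnip3l (0.94), Vegfa (0.71) and Ndrg1 (0.88). Pfkfb3 was again the lower gene (-0.86). Ddit4 had the largest fold of the called members at 1.52 (SE 0.22), with 79.4, 55 and 38.8 CPM in Ctrl and 241, 130 and 119 CPM in Ctrl MCM2-2A. Replicate 1 was the highest in both groups, and the groups did not overlap. The Hk1 call (0.59) ended without Ctrl replicate 3 or Ctrl MCM2-2A replicate 1 or 2, that of Bnip3 without Ctrl replicate 3 or Ctrl MCM2-2A replicate 1, and that of P4ha1 (0.66) without Ctrl MCM2-2A replicate 1. At this time 8 of 10 genes of the integrated stress response, a pathway known to induce Ddit4 as well, were higher in Ctrl MCM2-2A, with a median of 0.84, against 0 higher and 1 lower at T0. Vldlr (1.45), Chac1 (1.36) and Ddit3 (1.29) had the largest values. Of these genes 3 were higher at T12, 5 at T60 and 2 at 96 h. Their sum, over 11 gene IDs because Ddit3 has a second one, was higher without overlap at T12 (771 to 899 and 951 to 1033 CPM), T24 (818 to 903 and 1242 to 1355 CPM), T60 (524 to 616 and 792 to 803 CPM) and 96 h (769 to 850 and 899 to 937 CPM). Their part in the member values was not tested.

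After 96 h, 9 members were higher and 2 lower in Ctrl MCM2-2A, against 9.23% and 6.47% of features, with a median of 0.32. Ldha (0.69), Bnip3l (0.90), P4ha1 (0.88) and Ddit4 (1.60) were DE without each library in turn. The other 7 calls each ended without at least 1 library. They were Vegfa (0.76), Adm (2.50), Ndrg1 (0.75), Car9 (1.65), P4ha2 (0.61), Aldoc (-0.67) and Kdm3a (-0.60). In all, 7 members were DE without Ctrl replicate 1, 2 or 3 or Ctrl MCM2-2A replicate 3, and 6 without Ctrl MCM2-2A replicate 2. Adm, a vasodilator peptide, had 0.251, 0.112 and 0.219 CPM in Ctrl and 2.29, 0.745 and 0.839 CPM in Ctrl MCM2-2A, so its fold rests on few counts.

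At T60 the balance was different, with 2 members higher and 5 lower in Ctrl MCM2-2A, against 8.97% and 7.93% of features, and a median of 0.02. Pfkp (0.78) and Bnip3l (0.79) were higher. Slc2a1 (-0.94), Aldoc (-1.84), Slc16a3 (-1.37), Bnip3 (-1.10) and Egln1 (-0.58) were lower. Slc2a1 held 1008, 765 and 757 CPM in Ctrl and 524, 418 and 403 CPM in Ctrl MCM2-2A, with no overlap. Replicate 1 was the highest library in both groups. Pfkp lost its call in DESeq2 and without Ctrl replicate 2 or 3 or Ctrl MCM2-2A replicate 1, and Egln1 without Ctrl replicate 1 or Ctrl MCM2-2A replicate 2 or 3. Bnip3 lost its call in DESeq2.

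How did these genes change over the hours of RA? RA was given as LIF was withdrawn, and no group went without RA over those hours. Effects of RA, of the loss of LIF and of time in culture cannot be told apart. In Ctrl, 11 of 31 tested members rose within the first 12 h and 1 fell, against 7.24% and 4.04% of features. Adm and Car9 were too low to be tested here, and Car9 also between T0 and T60. Those that rose were mostly hypoxia-responsive genes rather than glycolytic enzymes: Bnip3 (1.39), Egln1 (1.07), Egln3 (1.29), Ankrd37 (1.29), P4ha1 (1.18), P4ha2 (0.78), Vegfa (0.90), Slc16a3 (1.03), Slc2a1 (0.67), Aldoc (0.65) and Ddit4 (0.60). Ndrg1 fell by 0.95 on the log2 scale. The median was 0.16 (0.09 without Ctrl T12 replicate 1), against 0.01 over all features, and libraries did not overlap for 14 members that were higher and 5 that were lower, against 25.3% and 21.3% of features. Bnip3 went from 15.2, 20.2 and 13.1 CPM at T0 to 49.2, 38 and 39 CPM at T12, so that the lowest T12 library lay well above the highest T0 library. Slc16a3 went from 77.1, 86.6 and 66.1 CPM to 169, 174 and 128 CPM and Egln3 from 4.19, 4.48 and 3.36 CPM to 12.5, 8.65 and 7.73 CPM. The calls of Aldoc, Ddit4, P4ha2, Ndrg1 and Ankrd37 each ended without at least 1 library. Aldoc lost its call without Ctrl T0 replicate 1, 2 or 3 or T12 replicate 1, and Ddit4 without any T0 library or T12 replicate 1 or 2. P4ha2 lost it without T0 replicate 2 or 3 or T12 replicate 1, Ndrg1 without T0 replicate 1 or 3, and Ankrd37 without T0 replicate 2.

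Of 9 tested HIF pathway genes 0 were DE between T12 and T0. Among 29 other HIF targets 4 rose, Loxl2 (1.50), Bhlhe40 (0.86), Narf (0.84) and Higd1a (0.64), and 1 fell, Hmox1 (-0.75). Over the same hours the 6 RA-induced genes went from 7.02 to 8.21 CPM summed to 314 to 374 CPM, and the 8 pluripotency genes from 3524 to 3644 CPM to 2434 to 2750 CPM. Between T12 and T24, P4ha2 rose (0.73) and Pdk1 fell (-0.78), against 6.97% of features DE in either direction. The P4ha2 call ended without Ctrl T24 replicate 1.

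The widest changes were between T0 and T60. Compared with T0, 10 of 32 tested members had risen and 6 had fallen in Ctrl, against 26.9% and 23.7% of features, so that the shares were close to those of all features. The genes that rose were P4ha2 (3.20), Adm (2.78), Egln1 (2.33), P4ha1 (2.11), Vegfa (1.84), Ddit4 (1.46), Bnip3 (1.25), Slc2a1 (1.00), Aldoc (0.97) and Egln3 (0.89). The genes that fell were the enzymes Pfkp (-3.02), Hk2 (-1.05), Pgam1 (-0.76) and Ldha (-0.62), the kinase Pdk1 (-1.39) and the demethylase Kdm3a (-1.91). P4ha2 rose from 15.1, 9.53 and 11.5 CPM to 136, 99.5 and 95.7 CPM. Pfkp fell from 122, 145 and 122 CPM to 21.2, 14.2 and 11.4 CPM. Both were far outside the spread of either group. The Ldha call ended without Ctrl T60 replicate 2 or 3. Between T24 and T60, 5 members rose and 7 fell, against 19.8% and 15.9% of features. P4ha2 (1.72), Ndrg1 (1.22), Egln1 (1.16), Vegfa (0.81) and P4ha1 (0.73) rose. Pfkp (-2.25), Kdm3a (-1.62), Hk2 (-0.95), Ldha (-0.84), Pdk1 (-0.72), Egln3 (-0.72) and Ankrd37 (-0.70) fell. Egln3 and Ankrd37 had risen at T12, and Ndrg1 had fallen. The Egln3 call ended without Ctrl T24 replicate 1 or T60 replicate 2 or 3, and that of Ankrd37 in DESeq2 and without Ctrl T24 replicate 1 or 3 or any T60 library.

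**Figure D4:**
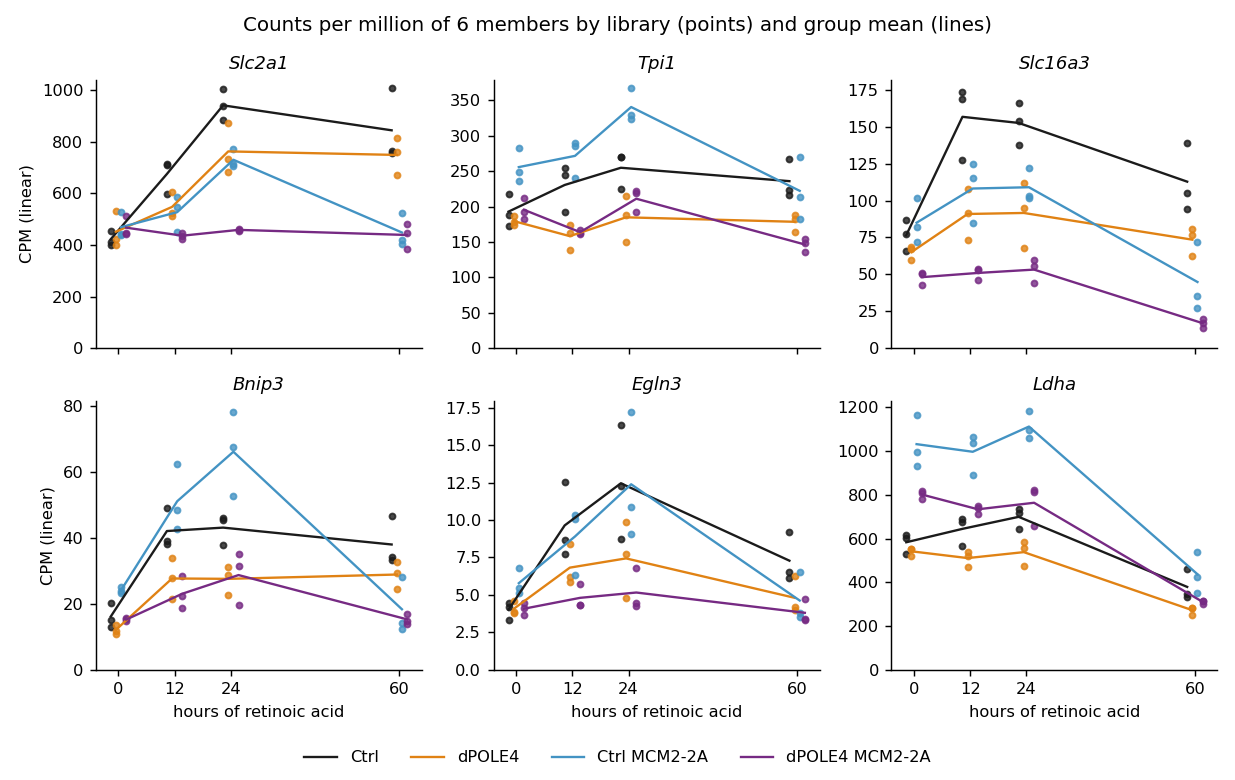
CPM of 6 members (panels) at T0, T12, T24 and T60 (x axis, hours of RA), with each library as a point and the mean of 3 libraries as a line, coloured by the 4 cell states. At T24 the dPOLE4 MCM2-2A line for Slc2a1 lies near 458 CPM, below all other groups, and at T60 both MCM2-2A lines for Slc16a3 lie below both WT lines.

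In the other groups the comparison of T60 with T0 called 9 members higher and 10 lower in dPOLE4, 8 and 13 in Ctrl MCM2-2A and 8 and 13 in dPOLE4 MCM2-2A. Of all features 25.6%, 26.3% and 23% were DE and higher in these groups, and 22.5%, 21.2% and 19.3% DE and lower. In the values that follow, the order is dPOLE4, Ctrl MCM2-2A and dPOLE4 MCM2-2A. P4ha2 (3.0, 2.51 and 2.24), Adm (2.95, 1.93 and 1.47), Egln1 (1.98, 2.17 and 1.79), Vegfa (2.00, 0.89 and 0.91) and P4ha1 (1.88, 1.77 and 1.46) rose in these groups as in Ctrl. Pfkp (-3.29, -2.93 and -2.84), Pdk1 (-1.55, -1.99 and -1.92), Kdm3a (-1.84, -1.49 and -1.11), Ldha (-0.996, -1.22 and -1.40), Hk2 (-0.98, -0.98 and -0.87) and Pgam1 (-0.91, -0.74 and -0.70) fell in these groups as in Ctrl.

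Some members were called in these groups and not in Ctrl, a difference that was tested only between the Ctrl lines and, in MCM2-2A, between the POLE4 states. Pfkfb4, an activator of phosphofructokinase by its product, rose in the 3 groups (0.88, 0.81 and 0.90, against 0.54 in Ctrl). Pkm (-0.91, -0.998 and -1.22), Aldoa (-0.64, -1.04 and -1.12), Eno1 (-0.69, -0.79 and -0.98) and Gapdh (-0.79, -0.70 and -0.70) fell in the 3 groups, and in Ctrl they had -0.55, -0.29, -0.47 and -0.53 without being DE. Slc16a3 (-0.91 and -1.54), Pgk1 (-0.83 and -1.05) and Aldoc (-0.87 and -1.09) fell in both MCM2-2A groups, and Pfkfb3 rose in both (1.47 and 1.99). Slc2a1 (0.73) and Bnip3 (1.24) rose in dPOLE4. Ddit4 rose in dPOLE4 (0.84) and Ctrl MCM2-2A (0.61), and Ndrg1 rose in dPOLE4 MCM2-2A (0.59), where Ankrd37 became DE with the replicate block (-0.87, against an unblocked -0.87 with adjusted p = 0.015). In Ctrl MCM2-2A the calls of Slc16a3 and Ddit4 ended in DESeq2. That of Slc16a3, whose libraries overlapped between the times, also ended without T0 replicate 1 or 2 or T60 replicate 2 or 3, and that of Ddit4 without T0 replicate 2 or 3 or T60 replicate 1. The second glucose transporter Slc2a3, with 0.34 in Ctrl and 0.21 in Ctrl MCM2-2A, and the isomerase Gpi1, with 0.14 and -0.27, were DE in none of the comparisons made here.

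The RA response at T60 differed between the Ctrl lines for 10 members when the difference was tested, 9 lower in MCM2-2A and 1 higher, against 4.4% and 4.7% of features. The median difference was -0.48, beside -0.01 for all features, and 27 of 33 were negative, against 51.4% of features. Slc2a1 rose by 1.00 in Ctrl and had -0.05 in Ctrl MCM2-2A, a difference of -1.07 (SE 0.15, adjusted p = 5.1e-05). Bnip3 rose by 1.25 in Ctrl and had -0.39 in Ctrl MCM2-2A, or -0.80 and DE without Ctrl MCM2-2A T60 replicate 1 (difference -1.67, SE 0.31, adjusted p = 0.00079). Aldoc rose by 0.97 in Ctrl and fell in Ctrl MCM2-2A, by 0.87. Its libraries went from 4.81, 5.67 and 5.91 CPM to 15.1, 8.87 and 7.55 CPM in Ctrl and from 5.72, 5.2 and 5.93 CPM to 3.69, 2.24 and 3.41 CPM in Ctrl MCM2-2A. Every Ctrl library at T60 lay above those at T0, and every Ctrl MCM2-2A library lay below. Vegfa rose in both, by 1.84 and 0.89, and the smaller rise in Ctrl MCM2-2A (difference -0.98, SE 0.14) started from the higher level at T0 described above and ended at 70.3, 58.7 and 60.2 CPM against 75.8, 59.4 and 78.2 CPM.

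Pfkfb3 was the 1 member with a higher response in MCM2-2A (1.01, SE 0.14, adjusted p = 6.6e-05). It went from 16.4, 18 and 17.5 CPM at T0 to 43.7, 53 and 44.8 CPM at T60 in Ctrl MCM2-2A, and so from below Ctrl to the level of Ctrl, where it held 49.1, 48.4 and 43 CPM. The calls of Slc2a1, Aldoc, Bnip3, Vegfa and Pfkfb3 held without each library in turn and in DESeq2. Those of Aldoa (-0.78), Pgk1 (-0.64), Slc16a3 (-1.51), Pdk1 (-0.64) and Egln3 (-1.23) each ended without at least 1 library. In all, 5 members were DE without Ctrl T0 replicate 3, Ctrl T60 replicate 1 or Ctrl MCM2-2A T60 replicate 3, and 6 without Ctrl MCM2-2A T60 replicate 2. Pgk1 also lost its call without Ctrl T0 replicate 2, and Egln3 without Ctrl T0 replicate 1 or Ctrl MCM2-2A T0 replicate 1 or 2. At T60 the pluripotency genes summed to 309 to 403 CPM in Ctrl and 708 to 892 CPM in Ctrl MCM2-2A, the fibroblast genes to 392 to 537 and 206 to 215 CPM, and the endoderm genes to 122 to 170 and 256 to 281 CPM. The neural genes summed to 295 to 324 and 217 to 250 CPM and the trophoblast genes to 106 to 130 and 187 to 219 CPM, while the RA-induced sums overlapped. Their part in these differences was not tested. POLE4 depletion in the MCM2-2A background was not shown to alter the RA response of any member at T60 by edgeR (0 called, where 0.254% of features were DE). An unadjusted p under 0.05 was reached by 4 of 33 members, beside 12.4% of features. Without the filter on low counts edgeR called Slc16a3 (-0.60, adjusted p = 0.0016).

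**Figure D5:**
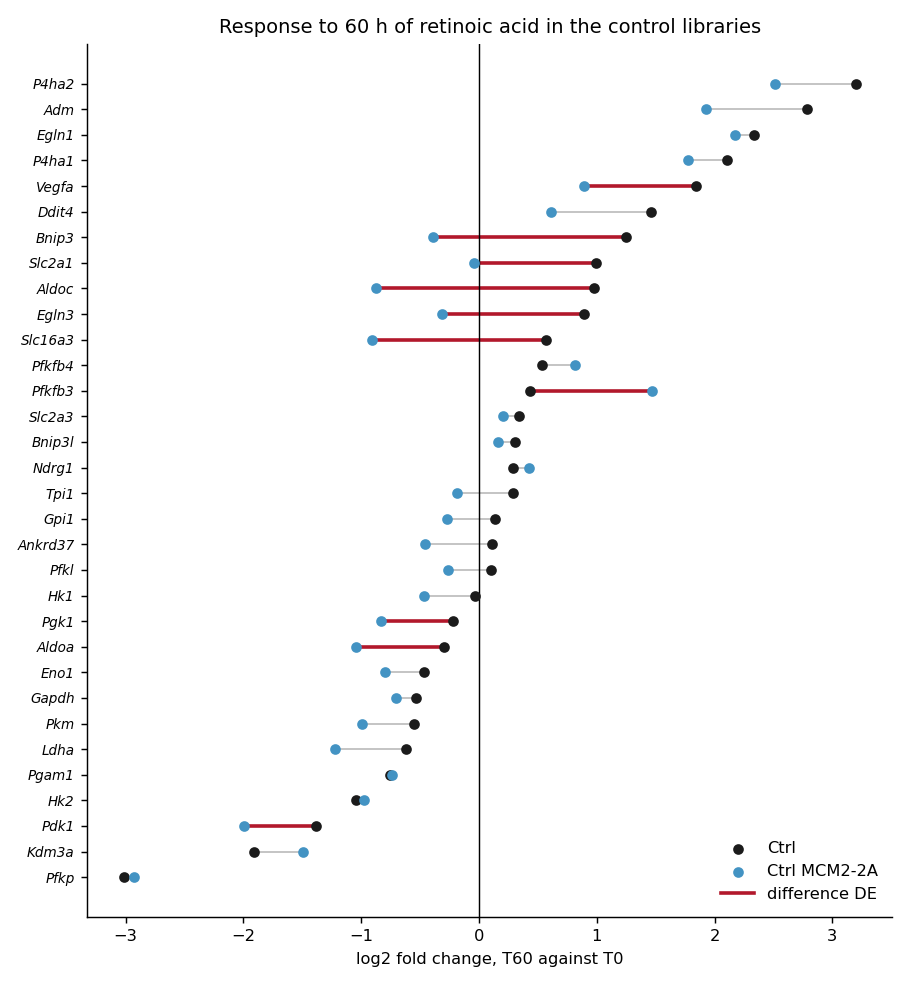
Log2 fold change of each member from T0 to T60 in Ctrl (black) and Ctrl MCM2-2A (blue), joined by a line that is red where the difference between the backgrounds was DE. Slc2a1 has 1.00 in Ctrl and -0.05 in Ctrl MCM2-2A, and Pfkfb3 is the only red line on which the MCM2-2A value is the higher.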

How the data were processed

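RNA-seq of 60 libraries was read from the raw counts per gene and repeat subfamily that the authors deposited, neither normalized nor pooled. The authors used rRNA-depleted, strand-specific libraries, cutadapt 4.2, STAR on mm10 with multimapping reads kept, TEcount and GENCODE M25. Symbols and coordinates came from GENCODE M21 of the same build (55227 of 55487 gene IDs matched). The members and the other gene lists were chosen with earlier results of these data known. Each comparison was fitted on its own groups with edgeR 4.0.16 in R 4.3.3 (quasi-likelihood, filterByExpr with a minimum count of 10 and total of 15, TMM over the features kept). DE meant an adjusted p under 0.01 and a log2 fold change over 0.58. Differences between backgrounds or times were interaction terms. CPM and RPKM were computed here, and marker sums are per library. Alternatives were DESeq2 1.42.0 and its size factors, no filter, more groups in the fit, a replicate block and leaving out each library. Every member was accounted for. DE members were named with values, and of other lists only DE genes, at most 3 a direction. The fits were tested on simulated counts. Same-numbered libraries deviated together, with every correlation over 0.1, in the POLE4 comparisons at T0, T24 and 96 h, in the comparison of backgrounds at T0 and 96 h, in RA at T24 against T12 and in dPOLE4 MCM2-2A at T60 against T0. Only the numbers in the labels tie these libraries. The label protocol names a T48 collection where titles give T12, and the titles were used.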

Additional observations from a re-analysis of the deposited data

Results flagged for a closer look

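For 10 members the response to RA, T60 against T0, differed between the Ctrl lines by the test of the difference itself, taken as MCM2-2A minus WT on the log2 scale. The difference was -1.07 for Slc2a1, -0.78 for Aldoa, -1.88 for Aldoc, -0.64 for Pgk1, -1.51 for Slc16a3, -0.64 for Pdk1, -1.67 for Bnip3, -1.23 for Egln3 and -0.98 for Vegfa. For Pfkfb3 it was 1.01. Slc16a3 held 72.3, 27.1 and 35.2 CPM in Ctrl MCM2-2A at T60, where replicate 1 stood above the others, and 139, 105 and 94.4 CPM in Ctrl.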

How the results depend on the processing

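No fold change of a called member reversed under any alternative. Among values of single called members, 1874 kept the call and 152 lost it. Member counts that moved by over 1.5 times were as follows, and the cause was not tested. In WT, T12 gave 2 without the filter and 1 with the replicate block. T24 gave 1 in DESeq2 and 3 either without the filter or with the block. T60 gave 0 in DESeq2, 2 without the filter and 0 with all 4 groups of the time point in the fit. In MCM2-2A, T0 gave 2 in DESeq2, without the filter or with the block and 1 with all 4 groups. T60 gave 2 without the filter or with all 4 groups, and 96 h gave 2 in DESeq2, without the filter, with the block and with all 4 groups. The difference of the POLE4 effect between backgrounds at T60 gave 2 without the filter, that of the RA response upon POLE4 depletion in MCM2-2A gave 1 without it, and the difference between T24 and T0 in MCM2-2A gave 1 in DESeq2 or with the block and 2 without the filter. The block changed no other count by over 1.5 times.

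Leaving out 1 library at a time gave 0 to 0 members for POLE4 in WT at T0, T24 and 96 h and in MCM2-2A at T0, 0 to 2 in WT at T12 and 0 to 1 in WT at T60. In MCM2-2A it gave 1 to 6 at T12, 4 to 7 at T24, 0 to 3 at T60 and 0 to 1 at 96 h. For MCM2-2A against WT the range was 10 to 12 at T0, 7 to 9 at T12, 9 to 12 at T24, 6 to 8 at T60 and 6 to 10 at 96 h. For RA in Ctrl it was 8 to 12 from T0 to T12, 1 to 2 from T12 to T24, 10 to 13 from T24 to T60 and 16 to 18 from T0 to T60. It was 19 to 20 in dPOLE4, 19 to 22 in Ctrl MCM2-2A and 21 to 23 in dPOLE4 MCM2-2A, and 5 to 12 for the difference of the RA response between backgrounds. The other differences gave 0 to 0. The members' median moved by over 1 SD of the libraries' own medians at T0 between backgrounds, to 0.52 without Ctrl MCM2-2A replicate 3. It also moved by over 1.5 times for POLE4 in WT at T0 (-0.07 to -0.01) and T60 (-0.28 to -0.13), for POLE4 in MCM2-2A at T0 (-0.21 to -0.12), T60 (-0.19 to -0.01) and 96 h (-0.10 to -0.04), for the backgrounds at T12 (0.15 to 0.33) and T60 (-0.02 to 0.08) and for RA in Ctrl at T12 (0.09 to 0.23). With 3 libraries a group and 1 line a background, members at the lowest counts (Adm, Car9) were least precise.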
